A study of Drosophila melanogaster with 2 samples.

Results

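The nuclear genes for subunits of the oxidative phosphorylation complexes were taken by gene symbol: all annotated nuclear protein-coding genes of Drosophila melanogaster whose symbol begins with ND-, UQCR-, COX and a digit, or ATPsyn. The rule gave 80 genes of 13968, with 40 for complex I, 9 for complex III, 16 for complex IV and 15 for complex V. Of these, 20 carry the name of another subunit with a final L and were kept apart as paralogs, and the other 60 are called the basic set here. Some subunit genes have other names (RFeSP, Cyt-c1, levy, cype, blw, sun) and were counted separately, as were all genes of complex II. By its symbol ATPsynepsilonL fell in the basic set, because the gene it resembles is named sun.

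CG17328, a zinc-finger protein, was mapped by chromatin immunoprecipitation and sequencing (ChIP-seq) in 2 biological replicates of whole embryos collected from 0 to 24 h. The transgenic flies carried CG17328 as a fusion with eGFP, a green fluorescent protein, and an anti-GFP antibody pulled down the sonicated chromatin. Both replicates formed 1 group, so no condition could be compared, and no control library was analysed here. Whole embryos mix all tissues and stages of that interval, so a peak cannot be assigned to a cell type.

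Oxidative phosphorylation makes ATP in the inner membrane of mitochondria. Complexes I, III and IV pass electrons from NADH to oxygen and pump protons, and complex V, the ATP synthase, uses the proton gradient. Most subunits are encoded in the nucleus and the rest in the mitochondrial genome, so that supply from both genomes has to be matched. In flies many subunit genes also have a duplicate that is known for expression in the testis.

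The authors' lists are called conservative (5807 peaks), other series-level thresholded (6152 peaks), replicate 1 (3713 peaks) and replicate 2 (4216 peaks). Each of them holds peaks at an irreproducible discovery rate (IDR) of 0.01 or less. The IDR estimates how likely a peak is to be among those not reproduced when rankings of peaks are compared. The ranked lists, from 79940 to 124555 peaks, hold far weaker candidates as well. A gene was given a promoter peak when the summit lay no more than 500 bp from any of its start sites. The signal is the authors' peak height, and the sources do not say whether the replicates share 1 scale.

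The sequence at 6 of the summits is shown first, because they include the 3 strongest member peaks and both A+T-rich and G+C-rich sites; the 5 weakest member peaks are not among them. Each run is the plus strand of dm6, 50 bp on either side of the summit. Capitals mark words described further down: TTTATA, the TATA box TATAAA on the other strand, at ND-ASHI; TATTTTAA at ND-24; CAGCTG at ND-51; TTATGTAA at ND-MNLL; TATCGATA at ATPsynE; and TAGCGATG, CATCNCTA on the other strand, at COX6B. The windows are chrX:6679316-6679416, chrX:17632137-17632237, chr2L:6062791-6062891, chrX:7893872-7893972, chr3R:14326958-14327058 and chrX:19744285-19744385, in the order of the lines.
ND-ASHI: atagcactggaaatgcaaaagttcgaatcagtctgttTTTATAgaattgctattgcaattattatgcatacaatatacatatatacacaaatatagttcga
ND-24: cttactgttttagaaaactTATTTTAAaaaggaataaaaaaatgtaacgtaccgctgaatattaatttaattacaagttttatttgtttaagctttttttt
ND-51: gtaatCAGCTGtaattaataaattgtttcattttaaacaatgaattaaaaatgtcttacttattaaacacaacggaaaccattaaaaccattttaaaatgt
ND-MNLL: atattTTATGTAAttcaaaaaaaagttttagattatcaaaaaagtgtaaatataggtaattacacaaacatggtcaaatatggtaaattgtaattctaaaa
ATPsynE: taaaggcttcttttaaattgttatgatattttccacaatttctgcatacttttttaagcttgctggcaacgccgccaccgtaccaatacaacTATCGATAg
COX6B: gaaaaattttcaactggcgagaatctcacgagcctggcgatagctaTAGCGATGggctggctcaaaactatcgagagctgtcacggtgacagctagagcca
The first 4 windows, all at complex I genes, had a G+C content of 18.8 to 27.7%. At ATPsynE it was 36.6%, and at COX6B 50.5%.

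Promoter peaks were found at 16 of the 80 genes in the conservative list (20%, Wilson 95% interval 12.7 to 30%), and at 20.1% of the 13888 other nuclear protein-coding genes. The share over all members was therefore near the background. In the other series-level list 18 members (22.5%) had a promoter peak, beside 21% of other genes. Replicate 1 alone gave 12 members (15%) beside 14.2%, and replicate 2 alone gave 12 (15%) beside 15.8%. A peak in the lists of both replicates was found at 10 members (12.5%) and at 11.7% of other genes. These intervals run over genes and not over replicates, and they hold counting error alone.

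All 16 genes belonged to the basic set, of which they made up 26.7% (interval 17.1 to 39%), beside the 20.1% of other genes. None of the 20 paralogs had a promoter peak in the conservative list, in the other series-level list or in either replicate's list (0 of 20, with an upper Wilson limit of 16.1%). Counting ATPsynepsilonL as a paralog, a choice made after its values were seen, made this 0 of 21. In the ranked list 15 of the 20 paralogs had a candidate within 500 bp, but the strongest, at UQCR-6.4L, reached a signal of 67.3. The best candidates of the paralogs had a median at percentile 63.4 of all ranked peaks, against 90.6 for the basic set and 84.9 for other coding genes. The difference between basic set and paralogs was not tested.

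By complex, the conservative list held promoter peaks at 8 of 40 complex I genes (20%), 1 of 9 complex III genes (11.1%), 4 of 16 complex IV genes (25%) and 3 of 15 complex V genes (20%). In the other series-level list the counts were 10, 0, 5 and 3. Within the basic set complex IV had the highest share, 4 of 8 (50%). Its interval of 21.5 to 78.5% begins just above the 20.1% of other genes, but this group of 8 was singled out after its share was seen. Over all genes of each complex the 4 intervals overlapped, and the differences between complexes were not tested.

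**Figure D1:**
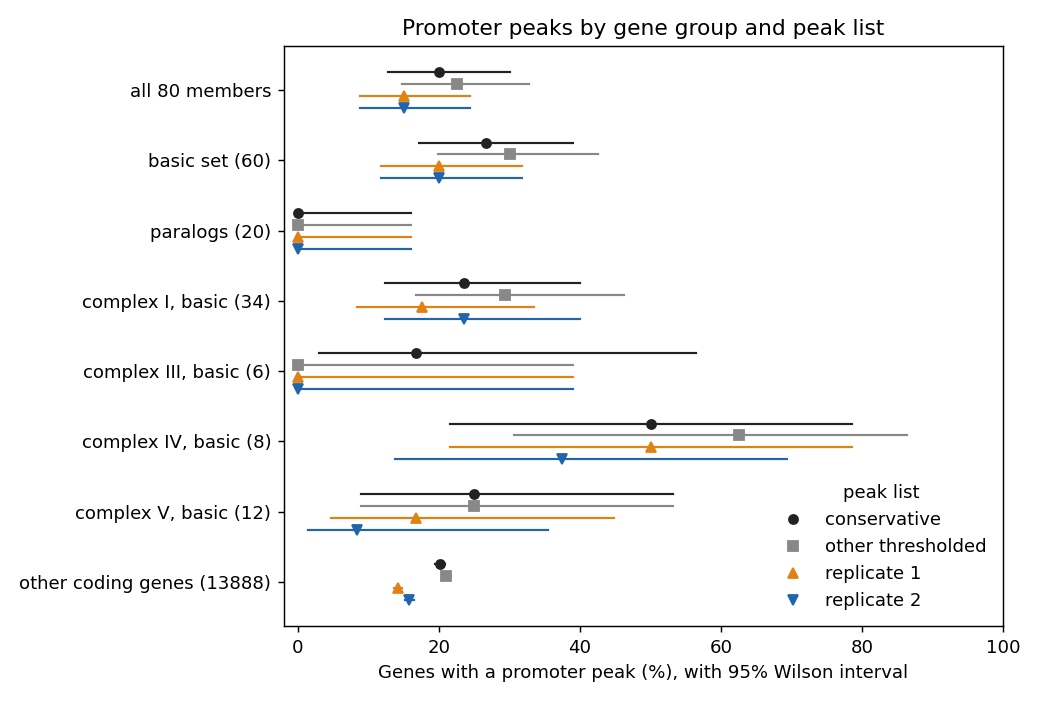
Percent of genes with a promoter peak (horizontal axis) in 4 thresholded peak lists, for all members, the basic set, the paralogs, the basic set of each complex and other coding genes; symbols are shares and lines are Wilson 95% intervals over genes. All members lie at 20% in the conservative list, beside 20.1% of other coding genes, and the paralogs are at 0 in every list.

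Complex I accepts electrons from NADH through a peripheral arm that holds the flavin and iron-sulphur clusters, and passes them to ubiquinone at the membrane. Its strongest promoter peak was at ND-ASHI, which encodes a supernumerary subunit of the membrane arm (NDUFB8 in human). The pooled signal there was 474, rank 194 of the 5807 conservative peaks, with 224 in replicate 1 and 246 in replicate 2. No other member reached even the replicate 1 value in its own replicate lists. The summit lay 248 bp upstream of the ND-ASHI start and 274 bp upstream of the start of Fum1, the fumarase of the citrate cycle, on the opposite strand. A single peak thus stood between genes of the respiratory chain and of the cycle that feeds it.

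The NADH-binding end of complex I includes ND-51, which carries the flavin, and ND-24, which carries an iron-sulphur cluster (NDUFV1 and NDUFV2 in human). Both had strong peaks. The pooled signal was 247 at ND-24, with 94.2 in replicate 1 and 154 in replicate 2. At ND-51 it was 167, with 86.7 and 99.3. These partners thus ranked next after ND-ASHI among the members. The ND-24 summit lay 98 bp downstream of its closest start and 140 bp upstream of corolla, a gene of the synaptonemal complex. The ND-51 summit lay 84 bp upstream of its start. Strong signal did not extend to every subunit: ND-75, also of complex I, was in no thresholded list and had a ranked candidate of 26.1.

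Accessory subunits of complex I gave most of the other peaks. ND-MWFE (NDUFA1 in human) had a pooled signal of 162, with 51.3 in replicate 1 and 113 in replicate 2, the largest ratio between replicates among the 16 peaks (2.19). ND-B17 (NDUFB6) had 138, with 66.3 and 70.3, and ND-42 (NDUFA10) had 131, with 62.6 and 69.9. All 3 were in the lists of both replicates. ND-MNLL (NDUFB1) was weaker, at 80.5, with 42.9 in replicate 1 and 36.1 in replicate 2. ND-B18 (NDUFB7) had 63.4, with 30.7 and 34.6. ND-MNLL and ND-B18 passed the threshold in the series-level lists but in neither replicate's own list.

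ND-23, a ferredoxin-like subunit with iron-sulphur clusters (NDUFS8 in human), was called in the other series-level list, with a signal of 93.3, but not in the conservative list. It had 21.5 in replicate 1, where its IDR was 0.367, and 63 in replicate 2, where it was 0.00026. ND-SGDH (NDUFB5) gave 18.5 and 45.1 at its stronger summit, with IDR values of 0.769 and 0.00319. ND-23 and ND-SGDH were thus called in replicate 2 and not in replicate 1, and their replicate 2 signal was 2.92 and 2.44 times the replicate 1 signal. At ND-SGDH this ratio compares summits at different positions. Of the complex I genes with no thresholded peak, ND-B22 and ND-19 had the strongest candidates, at 46.8 and 41.8. The ND-B22 candidate was found in the ranked list of replicate 2 only, while ND-19 had 26.5 in replicate 1 and 11.5 in replicate 2.

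Complex III passes electrons from ubiquinol to cytochrome c. Its 1 conservative peak was at UQCR-14, a small subunit that corresponds to UQCRB of human, with its summit 5 bp downstream of the start. The pooled signal was 55.7, with 25 in replicate 1 and 30.5 in replicate 2, the lowest pooled value of the 16. The IDR was 0.00812 in the ranked list that belongs to the conservative peaks and 0.068 in the other series-level ranked list, so that this call rested on 1 list. UQCR-C2, a core subunit, had a candidate of 55.2, almost the same signal, with 34.6 in replicate 1 and 19.5 in replicate 2, and an IDR of 0.0657. UQCR-6.4L had 15.6 in replicate 1 and 43.2 in replicate 2, and its candidate lay 475 bp upstream of the start.

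Complex IV, cytochrome c oxidase, reduces oxygen to water. COX5A, a matrix-side subunit, had the strongest peak among the COX genes. Its pooled signal was 142, with 60.3 in replicate 1 and 81.9 in replicate 2. Outside the symbol rule, levy of complex IV had 143. COX6B, which lies on the intermembrane side, had 111, with 53.4 in each replicate, and its summit fell on the annotated start itself. COX5B, another matrix-side subunit, had 86.7, with 39 and 49.5, and its summit lay 308 bp upstream. COX5A, COX6B and COX5B were in the lists of both replicates. COX7C, a small membrane subunit, had 62, with 38.4 in replicate 1, where it was called, and 30.7 in replicate 2, where it was not. COX8, also a small membrane subunit, was called in the other series-level list only: its signal was 48.7, and its IDR was 0.0137 in 1 pooled ranked list and 0.00994 in the other, on either side of the threshold of 0.01. The candidates at COX7B (40.3) and COX5BL (32.2) were the strongest of the rest.

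Complex V has a membrane part that turns with the proton flow and a matrix part that makes ATP. Among the genes taken by symbol, its peaks were weaker than the strongest ones of complex I and complex IV. The pooled signal ran from 60.7 to 92.9 over 3 complex V genes. It ran from 63.4 to 474 over 8 complex I genes and from 62 to 142 over 4 complex IV genes. Outside the symbol rule, blw of complex V had 238. ATPsynE, subunit e, which takes part in dimer formation, had 92.9, with 39.8 in replicate 1 and 55.2 in replicate 2, and was called in both. ATPsynCF6, coupling factor 6 of the stalk, had 76.3, with 52.5 in replicate 1 and 33.3 in replicate 2. Its replicate 2 to replicate 1 ratio of 0.635 was the lowest of the 16, and it was called in replicate 1 only. ATPsynD, subunit d of the stalk, had 60.7, with 28.7 and 33.9, and was called in neither replicate's own list.

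ATPsynC, which encodes the c subunit of the rotating ring, was a special case. Its candidate 129 bp upstream of the closest start had a signal of 72.9, with 23.5 in replicate 1 and 44.2 in replicate 2. The IDR was 0.00884 in the ranked list that belongs to the conservative peaks and 0.000908 in the other, both under the threshold, yet neither thresholded list holds the peak. It was 1 of 140 ranked peaks at or under an IDR of 0.01 with no counterpart among the conservative peaks, for a reason the sources do not state. ATPsynF had the next strongest candidate of the complex, at 39, with no counterpart in replicate 2.

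**Figure D2:**
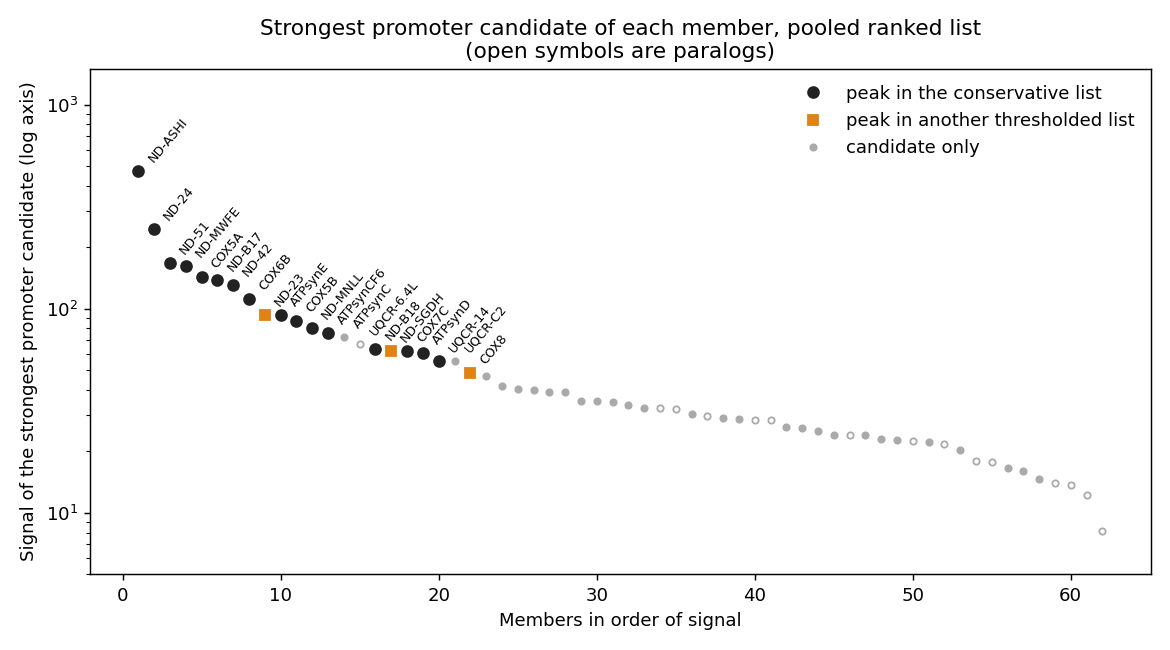
Signal of the strongest promoter candidate in the pooled ranked list (vertical log axis) for the 62 members that have one, in order of signal (horizontal axis); filled symbols are the basic set, open symbols paralogs, and black circles and orange squares are members with a thresholded peak. ND-ASHI stands highest at 474, and the uncalled candidates at ATPsynC (72.9), UQCR-6.4L (67.3) and UQCR-C2 (55.2) lie among the called peaks.

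The ranked list held a promoter candidate for 62 of the 80 members (77.5%) and for 79.9% of other coding genes, so a candidate near the start was common in both. The median signal of the best candidate was 34.2 for members and 33.6 for other genes, and its median percentile was 85.6 against 84.9. No candidate stood in this list for 18 members, and 9 of them had none in any of the 4 ranked lists. Among the 9 were ND-49, a core subunit of complex I, ND-ACP, the acyl carrier protein, and UQCR-11. ATPsynbeta, the catalytic subunit of the synthase, was among the 18, but the replicates' own ranked lists held weak candidates at its promoter, of 16.04 in replicate 1 and 18.87 in replicate 2. ATPsynbeta and ND-49 are the 2 members on chromosome 4, where 9 of 78 other coding genes (11.5%) had a candidate in the pooled ranked list. Complex I genes had a candidate at 34 of 40 promoters (85%) in replicate 1 and at 24 of 40 (60%) in replicate 2. Over other genes the shares were 72.2% and 68%.

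Of the 16 genes with a conservative promoter peak, 10 (62.5%) were in the lists of both replicates, 2 (12.5%) in replicate 1 only, none in replicate 2 only, and 4 (25%) in neither. Among the 2796 other genes with such a peak the shares were 57.9, 8.51, 14.2 and 19.5%. The signal was higher in replicate 2 at 13 of the 16 summits (81.2%), counting COX6B, whose values were equal to 3 digits, and at 72.5% of other promoter peaks. The median ratio of replicate 2 to replicate 1 was 1.14 (0.635 to 2.19), against 1.2 at other promoter peaks. The exceptions were ATPsynCF6, COX7C and ND-MNLL. With 2 replicates the spread of a single gene allows no test.

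**Figure D3:**
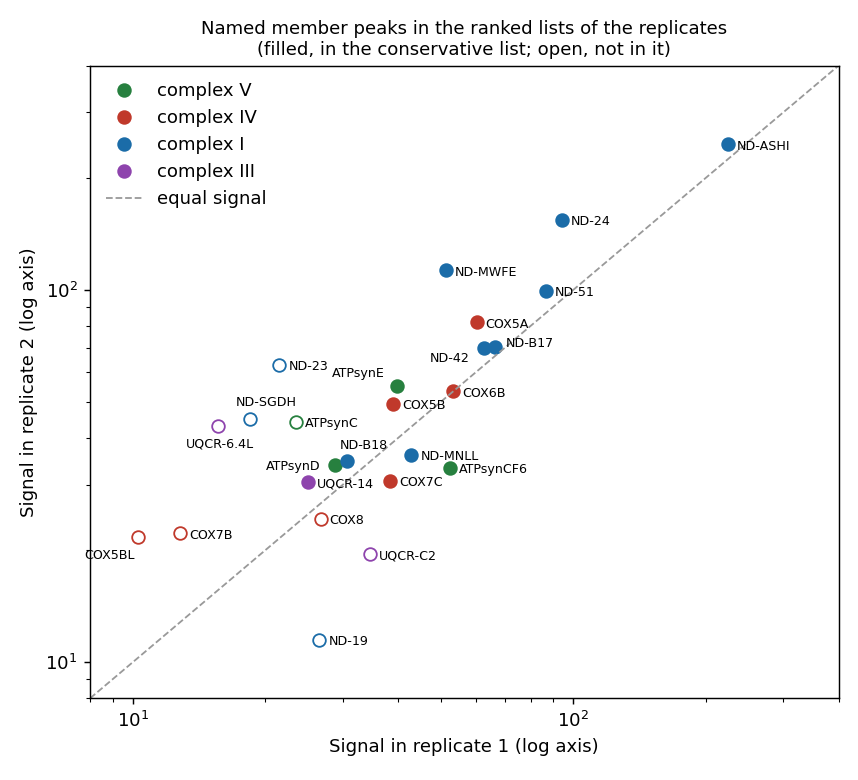
Signal of the named member peaks in the ranked list of replicate 1 (horizontal log axis) and of replicate 2 (vertical log axis), coloured by complex, filled where the peak is in the conservative list and open where it is not; the dashed line marks equal signal. ND-ASHI is highest in both replicates (224 and 246), and ND-23 (21.5 and 63) and UQCR-6.4L (15.6 and 43.2) lie farthest above the line.

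Subunit genes often stand back to back with a neighbour. A coding gene on the opposite strand started within 500 bp upstream of 34 of the 80 members (42.5%), and of 32 of the 60 basic genes (53.3%), against 26.3% of other coding genes. Members with such a head-to-head neighbour had a conservative peak in 12 of 34 cases (35.3%), close to the 35.7% of other genes with one. Members without such a neighbour had one in 4 of 46 cases (8.7%), beside 14.6% of other genes. These 4 were ND-ASHI, ND-B17, COX7C and UQCR-14. ND-ASHI counted as lacking a neighbour because Fum1 starts more than 500 bp away, although the summit between them lay within 500 bp of both starts. COX7C also shared its peak with a gene on the opposite strand, oys. Because all but 2 of the paralogs lack such a neighbour, those 46 mix basic genes with paralogs, and no paralog had a peak. The count of 4 fell to 2 without replicate 1 and with the stronger 2901 conservative peaks, and rose to 7 with a window of 1000 bp. The count of 12 fell to 6 with the stronger peaks and when only the nearest coding start was used. In the basic set alone, 4 of 28 genes without a neighbour had a peak (14.3%), beside 14.6% of other genes. With a neighbour it was 12 of 32 (37.5%), beside 35.7% of other genes. These differences were not tested.

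Most member peaks were therefore also peaks of another gene. Of the 16 summits, 14 (87.5%) lay within 500 bp of the start of a second coding gene, against 52.4% of the 2796 other genes with a conservative peak. The exceptions were ND-B17, which shared its peak with an snRNA gene, and UQCR-14. Several of the partners also act in mitochondria: Fum1 beside ND-ASHI, Cchl, the cytochrome c haem lyase, beside ND-42, and mRpL55, a mitochondrial ribosomal protein gene, beside ATPsynD. Other partners act elsewhere, such as Sec13 of the COPII coat beside ATPsynCF6, IFT52 of intraflagellar transport beside COX5B, p115, a Golgi tether, beside ND-MNLL and TppII, a peptidase, beside ND-MWFE. The member had the closest coding start in 9 of the 16 cases (56.2%), counting COX6B, which shares its start with CG18809, beside 74.9% for other genes. At ND-42 the summit lay 222 bp upstream of its start but 7 bp upstream of the start of Cchl. At COX7C it lay 310 bp downstream of its start and 44 bp upstream of the start of oys.

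Member summits lay at a median of 91 bp upstream of the closest start (-91 bp), against -110 bp for other promoter peaks. Of the 16 summits, 11 (68.8%) lay upstream, beside 79.8% of others, and 8 (50%) lay within 100 bp of the start, beside 37.6%. The median signal was 102 (55.7 to 474), against 105 for the other 2062 promoter peaks, and the median width was 316 bp in both. In these features the member peaks resembled other promoter peaks, as far as 16 values show.

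**Figure D4:**
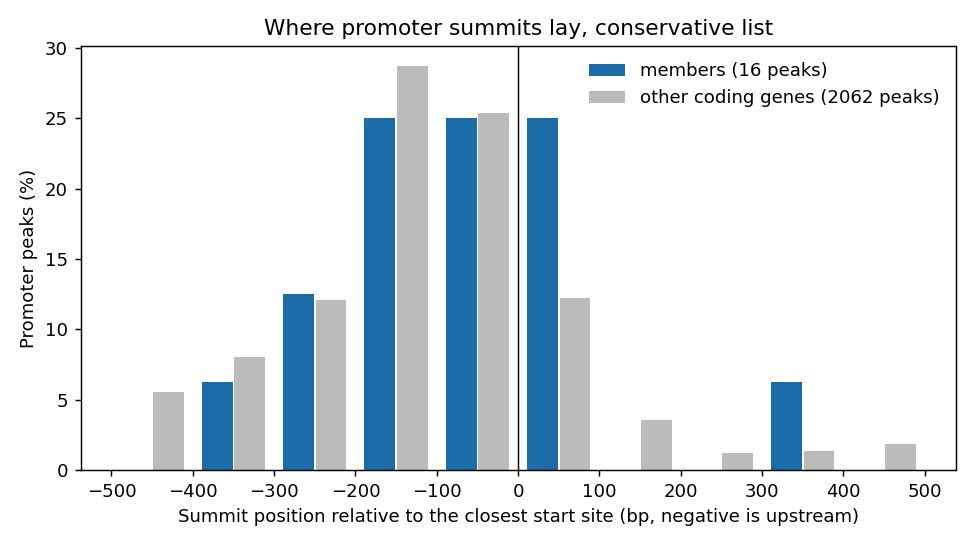
Position of conservative promoter summits relative to the closest start site (horizontal axis, bp, bins of 100 bp) for 16 member peaks (blue) and 2062 peaks of other coding genes (grey), as percent of the peaks of each set. Both sets pile up just upstream, and 25% of member summits against 12.2% of others lie in the first 100 bp from the start on.

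The base composition at member summits followed that of other promoter peaks. The median G+C content within 50 bp of the summit was 34.2% for members and 35.6% for other promoter peaks, and that of windows 250 to 350 bp away was 46.5% and 43.1%. The summit was poorer in G+C than its flanks at 11 of 16 member peaks (68.8%) and at 64.5% of other peaks. ND-MNLL (18.8% at the summit, 55.4% in the flanks), ND-24 (19.8 and 51%), ND-51 (21.8 and 50%) and ND-MWFE (24.8 and 54.5%) showed the deepest dips. COX6B (50.5 and 51%) showed next to none, and COX7C (51.5 and 30.2%) was 1 of 5 that were richer in G+C at the summit.

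**Figure D5:**
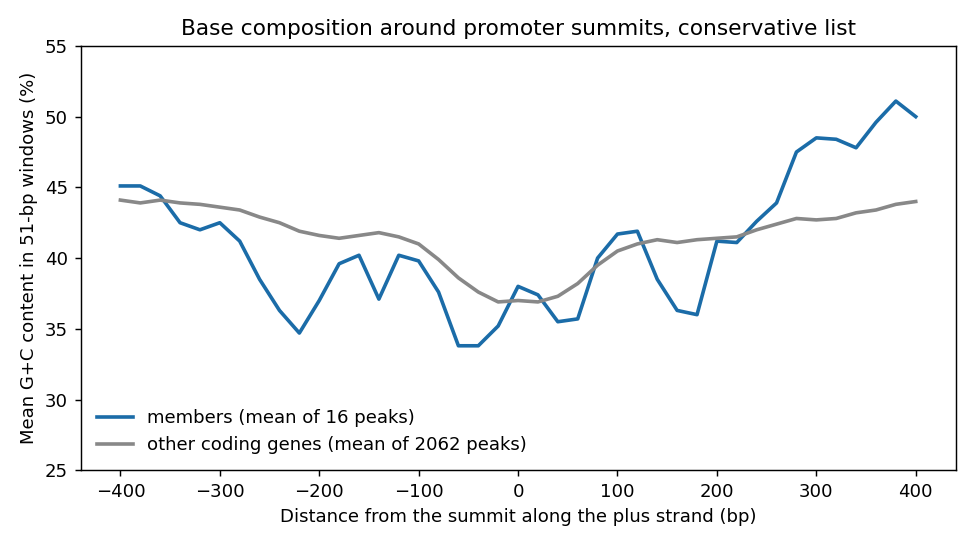
Mean G+C content in windows of 51 bp (vertical axis, %) against distance from the summit along the plus strand (horizontal axis, bp) for 16 member peaks (blue) and 2062 other promoter peaks (grey). The curve of other peaks dips around the summit, to 36.9%. The member curve is lowest at -60 and -40 bp (33.8%), but is 38% at the summit and 34.7% at -220 bp. It is uneven because it averages 16 sites.

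The chromosome arms differed in the count of called members. On the X chromosome 6 of 12 members had a conservative promoter peak (50%, interval 25.4 to 74.6%), beside 17.4% of other X-linked coding genes. They were ND-ASHI, ND-24, ND-MNLL, ND-B18, COX6B and UQCR-14. In the own list of either replicate, and in both together, the X count was 3 of 12 (25%), beside 11.8% of other X-linked genes in replicate 1, 13.6% in replicate 2 and 9.43% in both. On 3R it was 5 of 16 (31.2%) beside 20.9%, on 2L 3 of 16 (18.8%) beside 20.2%, and on 2R 2 of 15 (13.3%) beside 20.4%. None of the 19 members on 3L had one (upper limit 16.8%), beside 21.5% of other genes of that arm, although ND-SGDH and COX8 on 3L were called in the other series-level list. All 12 members on X were of the basic set, whereas those on 3L included paralogs, and no paralog was called on any arm. The arms thus also differed in the mix of basic genes and paralogs. Most members on 3L were of the basic set, however, and none of these had a conservative peak either. The arm was looked at after the peaks were known, and the differences were not tested.

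A set of 8 words was counted on both strands, from 250 bp before to 50 bp after the main start of each gene. Of these, TATTTTAA was taken from earlier work on these same peak lists. The others are known from nuclear respiratory genes or fly promoters. The nuclear respiratory gene element was searched as TTACATAA, TTACGTAA, TTATATAA and TTATGTAA, and the TATA box TATAAA can overlap it by sharing letters of TTATATAA followed by A. The element was in 5 of 80 member promoters (6.25%) and in 5.12% of others. With 150 bp on either side of the start it was in 13 members (16.2%), all of the basic set, against 3.84% of other genes. Of its 34 matches within 250 bp of member starts, 30 (88.2%) lay at or after the start, beside 35.2% for other genes, so the count depends on the window.

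Peaks and the element were then set side by side within 150 bp of the start. Of the 13 members with the element, 4 had a conservative promoter peak (30.8%), and of the 67 without it 12 (17.9%). The 13 were all of the basic set, whereas the 67 held all 20 paralogs, none of which had a peak. The basic set as a whole had a peak at 16 of 60 genes (26.7%), so the 2 shares also differ in the mix of paralogs. For other genes the shares with and without the element were 20.6% and 20.1%. Within 50 bp of the summit the element was found at 1 member peak, ND-MNLL, and at 1.94% of other promoter peaks. A match is a run of letters and not a site of binding.

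Among the other words, the core of core promoter motif 1, GGTCACAC, was in 16 members (20%) against 7.45% of other promoters, and the core of motif 5, CAGCTG, in 21 (26.2%) against 17.8%. The DREF element TATCGATA was in 8 (10%) against 8.94%, the E box CACGTG in 4 (5%) against 4.25%, and the core of motif 7, CATCNCTA, in 7 (8.75%) against 6.29%. TATAAA was in 38 (47.5%) against 45.2%. TATTTTAA, known from earlier work on these peak lists to be frequent at summits, was in 12 (15%) against 9.85%. The motif 1 core thus had the largest ratio of members to other promoters, yet it was within 50 bp of none of the 16 member summits, and of 1.79% of other promoter summits. CAGCTG was near 4 of the 16 summits (ATPsynCF6, ND-42, ND-51 and ND-B18) and near 5.48% of others. TATTTTAA was near 1, ND-24, and near 5.72% of others. Of the remaining words, CATCNCTA was near 2 summits (3.1% of others) and TATAAA near 2 (19.3% of others). TATCGATA was near 1 (2.96% of others) and CACGTG near none (1.12% of others). The differences were not tested.

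Genes of respiration outside the symbol rule, listed together with citrate cycle genes and regulators of mitochondrial genes, also divided into called and uncalled ones. Of 32 such genes, from a list of 33 in which Delg was not matched, 10 had a conservative promoter peak. The own list of replicate 1 held 7 of the 32 and the own list of replicate 2 held 6. The shares of other coding genes in these lists were 20.1, 14.2 and 15.8%. The peak at Fum1, 1 of the 10, is the ND-ASHI peak counted again. Of the 10 called genes, 4 were among the 10 citrate cycle genes of the list and 2 among its 6 matched regulators. None of the 6 complex II genes or of 3 further complex III genes had a conservative peak. The highest signal among the called genes was at Cyt-c-d, 1 of 2 cytochrome c genes, with 634 pooled, 237 in replicate 1 and 382 in replicate 2. Its summit lay 360 bp downstream of a start. The other cytochrome c gene, Cyt-c-p, was in no thresholded list and had a ranked candidate of 32.8. Next after Cyt-c-d came Idh3g, a subunit of isocitrate dehydrogenase, with 529, 219 and 311. The alpha subunit of the ATP synthase, blw, had 238, with 117 in each replicate. In complex IV, levy had 143, with 60.4 and 89.2. The genes of mitochondrial ribosomal proteins had a conservative promoter peak in 21 of 73 cases (28.8%, interval 19.7 to 40%), beside the same 20.1%. Replicate 1 and replicate 2 each gave 15 of 73 (20.5%) in their own list, beside 14.2 and 15.8% of other genes.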

How the data were processed

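ChIP-seq peak lists of 2 biological replicates on dm6 were used, as deposited. Per the file listings, the series-level lists derive from both alignments and a control alignment, and each replicate has its own lists. The sources used here give no aligner, peak caller or version. The deposited score follows the IDR, with 830 at the threshold of 0.01. The deposited signal is the authors' peak height. The −log10 column of the ranked lists is the authors' transformed IDR, from which the printed IDR values were computed. Values of series-level lists were pooled by the authors and have no error. No read counts are in the lists, so depth is unknown.

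Gene models came from Ensembl release 115 on the same assembly (18277 genes, 24111 start sites), and sequence from its FASTA. No peak ended past a chromosome. Promoter summits, neighbours, G+C content and words were computed with Python 3.11.15, NumPy 2.4.6 and SciPy 1.17.1. The assignment of summits to promoters was tested on simulated peaks, and the word search on short strings. Neighbours and G+C content were not tested in this way. Shares have Wilson 95% intervals and no test was made. Named genes are all members with a thresholded promoter peak, the strongest 2 uncalled members of each complex, and genes sharing a member's peak. Other genes were named after their values were seen. These include the uncalled members without a candidate, the paralog ATPsynepsilonL, ND-75, Cyt-c-p and the companion genes with the highest signal. The members, lists, words and alternatives were chosen with earlier results of these data known. Alternatives were windows of 250 and 1000 bp, the other series-level list, the stronger 50% of peaks, each replicate alone, any overlap with the window, and nearest starts only.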

Additional observations from a re-analysis of the deposited data

How the results depend on the processing

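The count of 16 members stayed between 14 and 20 with promoter windows of 250 and 1000 bp, the other series-level list, any overlap and left-out peaks added, but fell to 8 with the stronger 2901 peaks and to 9 with nearest coding starts only. The background share moved with it: 16.2% (250 bp), 23.6% (1000 bp), 21% (other list), 11.7% (stronger peaks), 21.3% (any overlap) and 15.4% (nearest starts). Leaving out a replicate gave 12 members either way, and a background of 14.2 to 15.8%. Adding the left-out peaks, an alternative set up after the data were seen, gave 17 members beside 20.6%.

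Complex I fell from 8 to 5 with nearest starts. Complex III went from 1 to 2 at 1000 bp and to 0 in the other list, with the stronger peaks and with either replicate left out (0 to 0). Complex IV fell from 4 to 2 at 250 bp and with the stronger peaks, and to 1 with nearest starts. Complex V fell from 3 to 0 with the stronger peaks and to 1 without replicate 1 (1 to 2 over both replicates). The median percentile of 85.6 became 79.6 to 80.8 with a replicate left out, 86.7 at 250 bp and 88.8 at 1000 bp. With 150 bp on either side, the respiratory element rose from 5 to 13 members and the E box fell from 4 to 1. A window of 1000 bp added ND-13A, ND-75, ND-SGDH and UQCR-6.4L, a paralog, and one of 250 bp lost COX5B and COX7C. The causes were not tested. Unknown read depth, 2 replicates and 16 called genes limit every comparison made here. No paired analysis was possible because the samples form 1 group.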
